A study of Drosophila melanogaster with 2 samples.

Results

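Deep gene-body summits are places where the fly protein CG8281, tagged with green fluorescent protein (GFP), was found on DNA inside a protein-coding gene and more than 10000 bp from the nearest protein-coding transcription start site (TSS). They were taken from the study's optimal list of chromatin immunoprecipitation and sequencing (ChIP-seq) peaks, in which each peak has a summit, the position of its highest signal. Of 3921 optimal summits, 317 met both conditions, or 8.08% (exact Clopper-Pearson 95% interval 7.25 to 8.98%). The rule used position only, not signal or sequence. Long introns of fly genes are a known home of enhancers, short stretches of DNA where transcription factors bind and raise transcription of a gene at a distance. Developmental regulators, signalling components and neuronal wiring genes have many of these long introns. A ChIP peak in an intron marks the protein's presence on or near that DNA, directly or through a partner, and does not say which gene, if any, responds to it.

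The samples formed 1 group of 2 biological replicates of whole Drosophila melanogaster embryos, 0 to 20 hours old, from 1 transgenic line that makes CG8281 with GFP at its C-terminal end, immunoprecipitated with an antibody against GFP. No second genotype, tissue or treatment was available, so every comparison sets these summits against flanking sequence, against the sequence the rule could have chosen, or against summits at other positions. Peaks came from whole embryos of mixed ages and tissues, so a weak peak in all cells and a strong one in few cells cannot be told apart. Read depth per library is unknown, because the peak lists give no read counts, and intervals and tests below cover the counting error of summits only.

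The strongest deep gene-body summits carried a repeat in their DNA: the triplets TGA or TGG, read on one strand or the other, one after another with starts 4 bases apart. The following windows, 101 bp centred on the summit, are shown as examples: 5 strong summits with the repeat, 3 where the triplets start 8 bases apart, and 1 that holds neither. All are on the + strand of the dm6 assembly, read from the RefSeq genome sequence of the same assembly, in lower case. Capitals mark the triplets of every array of 3 or more at the spacing given, TGA and TGG or, where the repeat runs on the opposite strand, TCA and CCA. An array can run on past the end of the window.
Sp1, chrX:9744983-9745083: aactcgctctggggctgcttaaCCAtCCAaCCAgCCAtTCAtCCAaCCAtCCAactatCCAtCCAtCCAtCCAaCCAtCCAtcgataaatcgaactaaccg
dally, chr3L:8865208-8865308: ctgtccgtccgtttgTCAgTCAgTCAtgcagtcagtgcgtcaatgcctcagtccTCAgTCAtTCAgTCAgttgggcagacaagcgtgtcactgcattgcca
Sema1a, chr2L:8576751-8576851: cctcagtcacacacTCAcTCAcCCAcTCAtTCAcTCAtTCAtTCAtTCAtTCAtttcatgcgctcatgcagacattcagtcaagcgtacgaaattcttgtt
Drak, chrX:11527199-11527299: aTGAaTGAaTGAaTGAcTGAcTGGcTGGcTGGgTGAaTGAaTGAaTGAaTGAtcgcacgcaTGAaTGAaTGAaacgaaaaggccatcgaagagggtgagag
disco-r, chrX:16136070-16136170: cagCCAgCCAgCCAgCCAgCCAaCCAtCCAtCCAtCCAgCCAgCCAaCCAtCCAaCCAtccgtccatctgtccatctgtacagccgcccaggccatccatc
rdx, chr3R:13998684-13998784, triplets 8 bases apart: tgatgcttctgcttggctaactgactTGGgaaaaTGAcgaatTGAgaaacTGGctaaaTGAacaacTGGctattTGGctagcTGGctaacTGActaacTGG
MCU, chr3L:6577603-6577703, triplets 8 bases apart: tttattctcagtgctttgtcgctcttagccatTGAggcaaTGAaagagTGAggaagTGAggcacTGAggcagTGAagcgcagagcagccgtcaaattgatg
bi, chrX:4474523-4474623, triplets 8 bases apart: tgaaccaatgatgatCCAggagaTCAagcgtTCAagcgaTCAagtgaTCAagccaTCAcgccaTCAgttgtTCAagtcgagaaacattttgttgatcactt
Pvf3, chr2L:7147326-7147426, neither: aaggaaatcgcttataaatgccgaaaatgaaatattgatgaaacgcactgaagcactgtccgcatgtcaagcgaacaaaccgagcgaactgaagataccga

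Arrays of 3 or more TGA or TGG triplets with starts 4 bases apart lay within 100 bp of 95 of the 317 deep gene-body summits, 30.0% (exact interval 24.98 to 35.3%). Each summit was given a pair of flanks of 101 bp, one centred 500 bp to its left and one 500 bp to its right, and in the flanks of 10 of the 317 an array was found, 3.15% (1.52 to 5.72%). In 22591 windows of 201 bp spread evenly over the sequence the rule could have chosen, the share was 2.66%. In 61 summits the array held 5 or more triplets, and the longest, in disco-r, held 18. With TGA alone as the triplet, 66 summits had an array, 20.8% (16.5 to 25.7%), against 2 flanks, 0.631%, and 0.527% of the eligible windows. The repeat was noticed in these summits and its definition was chosen after its values were seen, so it is given as a description with no test.

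Arrays were frequent only at spacings that are multiples of 4 bases, among the 10 spacings searched. Searched at every spacing from 3 to 12 bases, the same triplets formed arrays at 95 summits for a spacing of 4, at 108 (34.1%) for 8 and at 79 (24.9%) for 12, against 10, 8 and 11 flanks. At the other 7 spacings between 1.26% and 3.15% of summits had an array, against 0 to 3.15% of flanks. An uninterrupted array of 5 triplets 4 bases apart also counts at a spacing of 8, so these sets overlap. Of the 222 summits with no array at 4 bases, 18 (8.11%) had one at 8 bases, against 6 of their flanks. At 12 bases 4 of the 222 (1.80%) had one, against 5 of their flanks. All of the 12 strongest deep gene-body summits had an array at a spacing of 4 or 8 bases, as did 42 of the 50 strongest and 113 of all 317 (35.6%). Identity of bases was also counted without naming a triplet, over all 317 windows. These include the 95 with arrays, so the result is not separate from the arrays. Bases 4 apart were identical in 33.5% of pairs at the summits against 29.4% in the flanks. Bases 8 apart were identical in 32.6% against 28.7%, and bases 12 apart in 32.2% against 29.5%. At each other spacing from 1 to 11 bases, identity was lower at the summits than in the flanks. Summits at other positions also had high identity 4 bases apart. It was 32.0% at gene-body summits over 2000 and up to 10000 bp from a TSS. At summits outside protein-coding genes and more than 2000 bp from a TSS it was 31.5%, and within 500 bp of a TSS 29.9%. These differences were not tested.

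**Figure D1:**
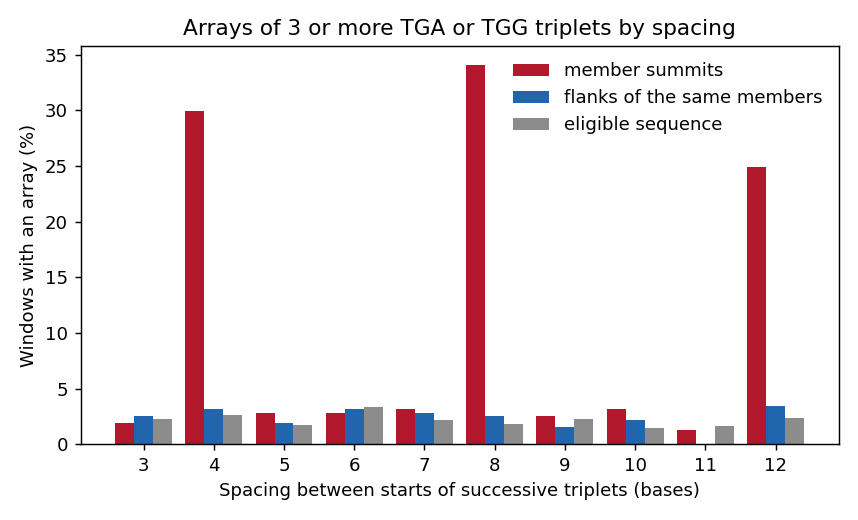
Share of windows with an array of 3 or more TGA or TGG triplets on one strand (vertical axis, percent) for each spacing between the starts of successive triplets (horizontal axis, bases), in 317 summit windows, in their flanks and in windows of the eligible sequence. The summit bars stand at 30.0%, 34.1% and 24.9% for spacings of 4, 8 and 12 bases and at 3.15% or less for the others.

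The arrays sat at the summits themselves. In 92 of the 95 summits with an array, its centre lay within 50 bp of the summit. In bins of 20 bp, the share of deep gene-body summits with array sequence was 21.5% from 0 to 19 bp on one side and 19.9% from -20 to -1 bp on the other, and 0.946% from 80 to 99 bp. For the strongest summit, in Sp1, the longest array held 8 triplets. In Drak it held 13, in Sema1a 10, in dally 4, and in osp, stx and rut 3, the minimum for an array. Of the 12 strongest summits, 10 had an array at this spacing, and in 4 it held 5 or more triplets.

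**Figure D2:**
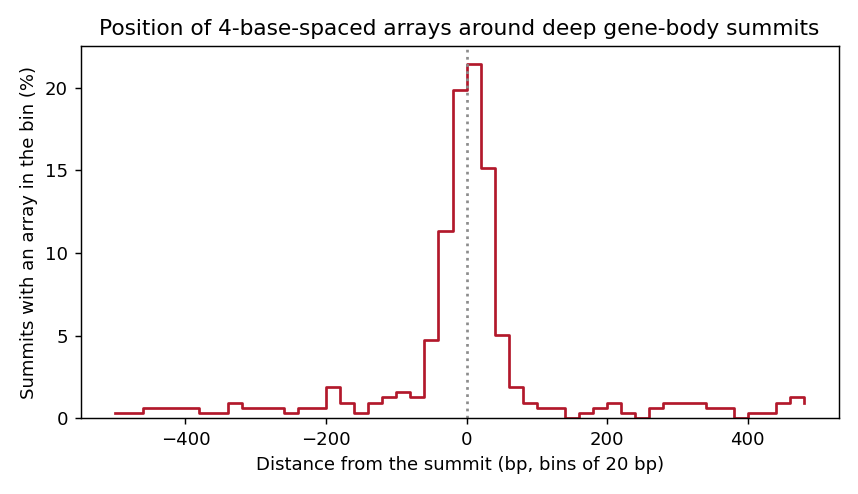
Share of the 317 deep gene-body summits with sequence of an array of TGA or TGG triplets 4 bases apart in each bin of 20 bp (vertical axis, percent) by distance from the summit (horizontal axis, bp, along the + strand). The share peaks at 21.5% beside the summit and is 1.89% or less in each bin from 60 bp outward.

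Stronger summits held the array more often. Ordered by signal and cut into 4 parts, the strongest 79 summits (signal 365.8 to 14960.7) had an array in 63.3% (exact interval 51.7 to 73.9%), the next 79 in 26.6%, the next 79 in 16.5% and the weakest 80 (122.8 to 148.1) in 13.75% (7.07 to 23.3%). The flanks of the same 4 parts had one in 1.27%, 1.27%, 7.59% and 2.50%. The 95 summits with an array had a median signal of 398.2 against 171.6 in the 222 without. Both sets ranged widely, from 122.8 to 14960.7 with an array and from 123.5 to 8184 without, so the array did not separate strong from weak summits. In the separate replicate lists, summits with an array had a median rank of 1262 in replicate 1 and 881 in replicate 2, against 2846 and 2176 without one. Of the summits with an array, 77 of 95 (81.1%) were found among the 3921 strongest peaks of both replicates, against 129 of 222 (58.1%) without.

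The array share was higher in deep gene-body summits than in the 3 other position classes compared, as a description. It was 30.0% (24.98 to 35.3%) here, against 21.3% (18.6 to 24.2%) of 854 gene-body summits 2001 to 10000 bp from a TSS, 20.6% (17.2 to 24.3%) of 520 summits outside protein-coding genes and more than 2000 bp from a TSS, and 3.47% (2.57 to 4.58%) of 1383 summits within 500 bp of a TSS. The array was defined after its values in deep gene-body summits were seen, which can favour them in this comparison. Base composition and repeat masking moved with the array. The median GC content within 100 bp of the summit was 47.3% in summits with an array and 37.3% in those without. Of the summits with an array, 42.1% fell on bases that RefSeq marks as repeats, against 17.9% of the positions 500 bp to either side. Without an array the shares were 21.2% and 20.7%. The part of base composition and of repeats in the result was not tested.

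**Figure D3:**
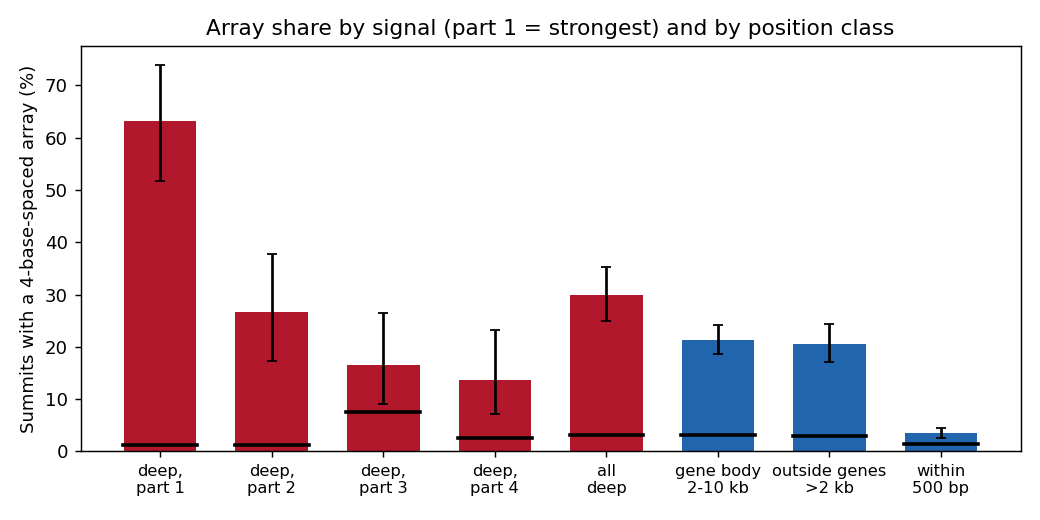
Share of summits with an array of 3 or more TGA or TGG triplets 4 bases apart within 100 bp (vertical axis, percent), for deep gene-body summits in 4 parts by signal (part 1 strongest) and together (red), and for summits at other positions (blue). Error bars are exact 95% intervals and black lines give the share in the flanks; the red bars run from 63.3% in part 1 to 13.75% in part 4, and summits within 500 bp of a TSS stand at 3.47%.

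Words of 8 bases chosen without regard to any motif gave the same repeat. The 10 words that differed most between summits and flanks on 2L and 3L were tested on 204 deep gene-body summits of the other arms by the exact McNemar test, two-sided, adjusted over the 10. Of these, 9 passed (90% of the words tested), each commoner at the summits. CTGACTGA, which reads TGACTGA from its second base, was within 100 bp of 26 of the 204 summits against 2 flanks (exact adjusted p = 8.05e-06), and was in 11.99% of all 317 summits against 0.946% of the flanks and 0.699% of eligible windows. ACTGACTG was at 25 summits against 2 flanks (exact adjusted p = 2.82e-05), AGTCAGTC at 26 against 3 (3.81e-05) and GTCAGTCA at 24 against 2 (3.50e-05, both by the same exact test). CTGAATGA was at 15 against 0 flanks (exact adjusted p = 0.000122). The words overlap each other and their reverse complements within 1 repeat, so the 9 are not separate findings. AGGAAAAA, the tenth, was at 3 summits against 7 flanks (exact adjusted p = 0.344). The words were not confined to deep gene-body summits. CTGACTGA was also in 9.02% of nearer gene-body summits, 8.46% of summits outside genes and 1.52% of those within 500 bp of a TSS. These class shares were not tested.

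Of 24 motifs of known fly factors or simple repeats, none was called commoner at these summits than in their flanks. Each was searched by its letters on both strands. For promoter and insulator proteins these were DRE (TATCGATA), BEAF-32 core (CGATA) and M1BP (GGTCACAC), with the TATA box (TATAAA) and CTCF core (AGGTGGCG). For the early embryonic activator they were Zelda (CAGGTAG), and for proteins of open or silenced chromatin GAGA factor (GAGAG) and Pho (GCCAT). Signalling factors were Su(H) (GTGGGAA), the Notch effector, Mad (GGCGCC), the Dpp effector, ETS (CCGGAA) and AP-1 (TGANTCA). Growth and muscle factors were TEAD (GGAATG) and Mef2 (TAAAAATA). Families of developmental factors were the E-box (CANNTG) of bHLH proteins, homeodomain (TAATTA), Fox (TGTTTAC) and Runt (TGTGGT). Zinc finger families were searched too, GATA factors as GATAA, nuclear receptors as AGGTCA, and Sp1 and KLF proteins as GGGCGG. A short repeat of GCTGCTG was searched too. Simple runs were CACACACA and AAAAAAAA. The BEAF-32 core lies inside the DRE. Of the 24, 1 passed, or 4.17%, by the exact McNemar test adjusted over all of them. Runs of 8 A were within 100 bp of 36 summits, 11.4%, against 66 flanks, 20.8% (exact adjusted p = 0.0385), and in 11.97% of eligible windows. That call rested on the setting: the difference, -9.46 percentage points here, was -5.68 with a window of 50 bp (exact adjusted p = 0.213), -6.94 with flanks at 1000 bp (0.387) and -8.12 without replicate 2 (0.331, all by the same exact test). The next lowest p was for TEAD, at 11.7% of summits against 6.94% of flanks (exact adjusted p = 0.641). A letter match is not a bound site.

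Within 100 bp of the summit, 5 motifs were rarer at deep gene-body summits than at promoter summits and 1 was commoner, and 4 of these calls were lost in a narrower window. Of 72 comparisons of a motif with a position class, 6 passed, or 8.33%, by Fisher's exact test adjusted over all 72, each against the 1383 summits within 500 bp of a TSS. The DRE, the element of housekeeping promoters, was in 0.315% of deep gene-body summits against 4.34% of promoter summits (exact adjusted p = 0.00172). The core of the insulator protein BEAF-32 was in 18.3% against 30.7% (exact adjusted p = 0.000236), and the element of the promoter factor M1BP in 0% against 2.17% (exact adjusted p = 0.0406). GATA was in 33.8% against 42.95% (exact adjusted p = 0.0406) and the TATA box in 28.4% against 38.1% (exact adjusted p = 0.0213). The letters of Pho, a DNA-binding protein of the Polycomb group, were commoner, in 40.1% against 25.6% (exact adjusted p = 4.02e-05), and stood in 34.6% of eligible windows and 41.0% of the flanks. With a window of 50 bp the calls for the BEAF-32 core and Pho held. There the DRE difference was -1.52 percentage points in place of -4.02 (exact adjusted p = 0.193), and that of M1BP was -0.940 in place of -2.17 (exact adjusted p = 0.549). The TATA box and GATA also missed the threshold at 50 bp (exact adjusted p = 0.133 for each). The call for GATA was lost without replicate 1 as well (exact adjusted p = 0.406). Deep gene-body windows were also richer in GC, with a median of 39.8% against 34.3% for promoter summits, and the part of base composition in these differences was not tested.

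Deep gene-body summits made up 3 of the 12 strongest optimal peaks, those in Sp1, dally and osp, and 11 of the 100 strongest. Among all 3921 optimal summits their share was 8.08%, and these counts were not tested. The signal values are the authors' own and their scaling is not stated, so replicates are set side by side by rank. The summit in Sp1 (FBgn0020378), whose product is a zinc finger factor of leg growth, had a signal of 14960.7 in the pooled list, 6949 in replicate 1 (rank 2) and 8017 in replicate 2 (rank 4). In dally (FBgn0263930), which encodes a glypican that shapes Dpp and Wingless gradients, the signal was 13530.9, with 5315 in replicate 1 (rank 6) and 8266 in replicate 2 (rank 3). In osp (FBgn0003016) it was 9794, with 2833 (rank 25) and 6962 (rank 7). All 3 were near the top of both lists. On dm6 the Sp1 summit is at position 9745033 of chromosome X, in intron 2 of the longest transcript, which is 22323 bp long. The dally summit is at 8865258 of 3L, in the first intron, of 48654 bp, and the osp summit at 14669085 of 2L, in the first intron, of 48696 bp.

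The other host genes of the 12 strongest deep gene-body summits ran from rank 20 to rank 105. rdx (FBgn0264493), a substrate adaptor of a ubiquitin ligase in Hedgehog signalling, had 8184, with 4058 in replicate 1 (rank 16) and 4138 in replicate 2 (rank 22). Sema1a (FBgn0011259), a transmembrane semaphorin of axon guidance, had 5619, with 1506 (rank 53) and 4117 (rank 23). Drak (FBgn0052666), a protein kinase gene, had 4565, with 1341 (rank 61) and 3249.5 (rank 31). These 3 stayed within the 61 strongest peaks of either replicate. The rdx summit is at 13998734 of 3R, in an intron of 55775 bp, the Sema1a summit at 8576801 of 2L, in an intron of 66730 bp, and the Drak summit at 11527249 of X. The summit in MCU (FBgn0042185), the mitochondrial calcium uniporter gene, also lies in jv and had 4078, with 2539 (rank 31) and 1531 (rank 77). CG42342 had 3766 and stx 3589, with ranks from 46 to 52 in either replicate. CG12535 had 2291, rut, an adenylyl cyclase gene of memory, 2251, and luna, a Krüppel-like factor gene, 2063. Replicate ranks of these last 3 ran from 109 to 150 in replicate 1 and from 74 to 105 in replicate 2, so replicate 2 ranked each of them higher.

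Most deep gene-body summits were far weaker than these. Their signals had a median of 201.8, and the middle of the list ran from 148.1 to 364.1 between the lower and upper quartiles. A peak of any strength overlapped the optimal peak in replicate 1 for 315 of the 317, in replicate 2 for 315 and in both for 313, beside 94.9% of all optimal peaks. Among the 3921 strongest peaks of each replicate, 239 were found in replicate 1, 280 in replicate 2 and 206 in both. The share found in both was 65.0% (exact interval 59.5 to 70.2%), beside 68.2% of all optimal peaks. It was 71.1% of gene-body summits 2001 to 10000 bp from a TSS (Fisher's exact test adjusted over 3 classes, p = 0.138), 66.7% of summits outside genes (0.652) and 66.9% of those within 500 bp of a TSS (0.652), and none of the 3 differences passed. The optimal list was derived from the replicate lists, so these shares do not measure independently how alike the replicates are.

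Of the 313 deep gene-body summits found in both full lists, 217 had a better rank in replicate 2 and 96 in replicate 1. The share better ranked in replicate 2 was 69.3% (exact interval 63.9 to 74.4%), beside 52.9% of all optimal summits found in both lists. It was 61.8% (58.4 to 65.1%) of nearer gene-body summits, 65.9% (61.6 to 70.1%) of summits outside genes and 37.7% (35.0 to 40.5%) of promoter summits, and these shares were not tested. By the pooled signal, 45.4% of deep gene-body summits (39.9 to 51.1%) were stronger than the median optimal peak, against 53.7% of promoter summits (exact adjusted p = 0.0264), 49.8% of nearer gene-body summits (0.284) and 47.1% of summits outside genes (0.668), all by Fisher's exact test. The difference from promoter summits, -8.30 percentage points, depended on the replicate. It was 7.08 points in the other direction by the signal of replicate 2 alone, without replicate 1 (exact adjusted p = 0.0742), and -20.5 points by replicate 1 alone, without replicate 2 (exact adjusted p = 1.53e-10). By replicate 1 alone the difference from nearer gene-body summits, -4.34 points as reported, was -7.49 points and passed (exact adjusted p = 0.0367). The cause of the split between replicates was not tested.

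**Figure D4:**
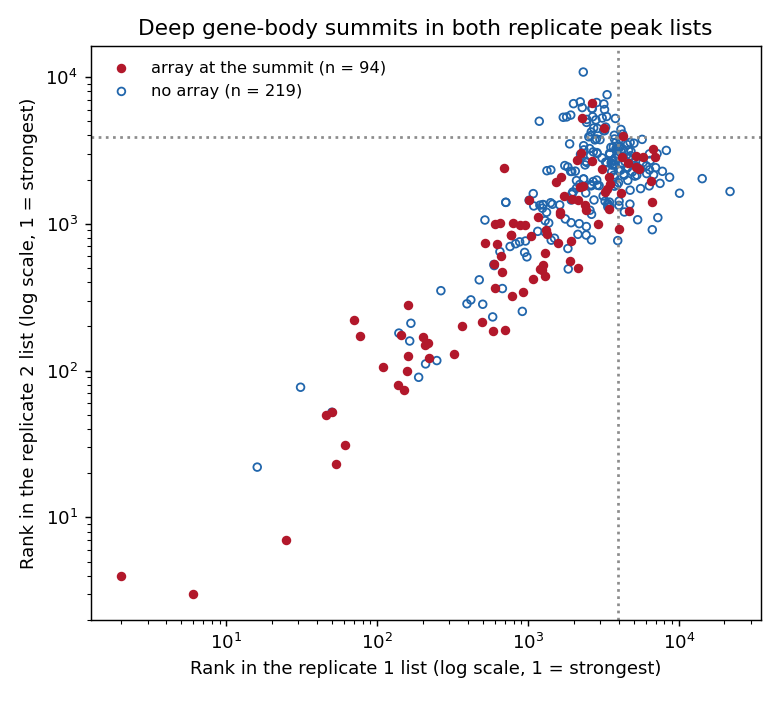
Rank of each deep gene-body summit in the replicate 1 list (horizontal log axis) and in the replicate 2 list (vertical log axis), for the 313 found in both, with an array of TGA or TGG triplets 4 bases apart (filled) or without (open). Dotted lines mark rank 3921. Of the 317, 206 have a rank of 3921 or better in both lists, and 217 have a better rank in replicate 2 than in replicate 1.

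Deep gene-body summits were fewer per Mb of the sequence open to them than optimal summits over the arms as a whole. The sequence inside protein-coding genes and more than 10000 bp from every protein-coding TSS came to 22.6 Mb, 16.5% of the chromosome arms, and held 14.0 summits per Mb against 28.6 for the arms as a whole, a ratio of 0.491. Without replicate 2 the ratio was 0.419 and without replicate 1 it was 0.538. X held 76 of them, 21.7 per Mb of eligible sequence, and 2L 64, 21.4 per Mb. 3R held 86 (12.4 per Mb), 2R 42 (11.4 per Mb) and 3L 49 (11.3 per Mb), lower than X and 2L. Chromosome 4 and Y held 0, with 0.207 Mb and 0.934 Mb eligible. These densities were not tested. Distances to the nearest TSS ran from 10026 to 85831 bp with a median of 16197 bp. Just inside the threshold were summits in NetB, at 10026 bp with a signal of 214.3, and in sdt, at 10027 bp with 148.4, and just outside it summits in Efa6, at 9998 bp with 133.3, and in N, at 9985 bp with 133.6.

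Nearly all lay in introns and none in coding sequence. By the annotation of all transcripts, 310 of 317 were intronic, 97.8% (exact interval 95.5 to 99.1%), against 89.6% of the eligible sequence. Coding sequence held 0, which allows a share of up to 1.16%, against 6.71% of the eligible sequence. The exonic summits were 3 in 3′ UTRs, with Dop1R1, pros and Tis11 as hosts, and 1 in a 5′ UTR, with baz as host. In other exons lay 3, with osa, Antp and nkd as hosts. The exon could belong to any annotated transcript at that position, of the host or of another gene. In the longest transcript of the host, 83 of 314 summits, 26.4% (21.6 to 31.7%), lay in the first intron, against 14.3% of eligible positions. The introns that held them were 27800 bp long at the median, against 32041 bp for eligible positions. The nearest protein-coding TSS belonged to the host gene for 202 summits and to another gene for the rest.

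Some genes held several. Of 926 genes with eligible sequence, 182 held at least 1 deep gene-body summit, 19.7%, and 64 held 2 or more. Genes with one had a median of 26.2 kb of eligible sequence, against 8.66 kb for those without. Within 1000 bp of another deep gene-body summit lay 46 of them, and within 5000 bp 123. Taking ties by top signal, the 8 genes with most held 49 in all. kirre, an immunoglobulin-domain gene of myoblast fusion, held 7, each in the same intron of 117679 bp, with signals from 125.4 to 364.1. sbb, which encodes a nuclear zinc finger protein, held 7 in 1 intron of 65649 bp, with signals from 126.8 to 844.8, and osp held 7, from 126.6 to 9794. So kirre had several weak summits and osp 1 very strong one among weaker ones. rdx, Snoo, a Ski family gene, and jing, a zinc finger gene, held 6 each, with top signals of 8184, 406.2 and 352.6. CG12535 and luna held 5 each, as did hth, Ptp10D, Antp, CG46458, CG42238 and CG31145, which had lower top signals. The summits in Antp and CG46458 are the same 5, since the genes overlap. Per 100 kb of eligible sequence, sbb had 27.5, rdx 26.6, osp 12.03 and kirre 4.37.

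Gene groups held such summits at shares from 3.57% to 66.7% of their genes with eligible sequence. Each count below is of list genes with eligible sequence, is to be read beside the 19.7% of all eligible genes, and has no test. The list of zinc finger, BTB and bZIP transcription factor genes and cofactors had 12 of 23, with Sp1 (top signal 14960.7), luna (2063) and sbb (844.8) strongest. It held 57.6 summits per Mb of eligible sequence against 14.0 for all. The list does not cover these families in full, and the zinc finger gene jing, for example, is not in it. Nuclear receptor and ecdysone response genes had 5 of 14, with Hr4 (478.9), ftz-f1 (234.9) and Hr3 (159.8) strongest, though the summit in Hr3 also lies in CG12912 and CG46321. Of 6 Hox genes with eligible sequence 2 had one, Antp (300.3) and pb (130.7), and without replicate 1 the count was 1 of 6. Other homeodomain, T-box, Pax, Sox, Fox and POU factor genes had 5 of 31, a share below that of all eligible genes, with bi (1513), hth (799.5) and ct (249.9) strongest. The bHLH and proneural list had 2 of 8, twi (235.1) and tai (140.7), though the summit in twi also lies in CG42741.

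Of the signalling lists, the share was 33.3% to 66.7% in all but the Notch list, where it was 20%. The Dpp and activin list had 4 of 6: dally, sog (349.8) and cv-2 (321.9), which encode secreted proteins that bind BMPs, and dlp (216.0), a second glypican. Heparan sulfate proteoglycan and enzyme genes had 3 of 7, dally, dlp and trol (126.0), the perlecan gene, so this list and the Dpp list share both glypicans. Without replicate 1 its count was 2 of 7. The receptor tyrosine kinase and Ras list had 7 of 21, with the ligand gene Pvf3 (1534), kek5 (464.3) and the ligand gene vn (311.6) strongest. The count of this list was 6 of 21 without replicate 1 (28.6%) and 5 of 21 without replicate 2 (23.8%). Wingless, Hedgehog and planar polarity genes had 4 of 12, with the receptor genes fz2 (467.5) and fz (376.5) and the protocadherin gene ds (338.0) strongest. Notch pathway genes had 2 of 10, the receptor gene N (1568) and the protease gene kuz (183.4), a share close to the background, and 3 of 10 without replicate 1.

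The neuronal lists ran from 3.57% to 28.1%. Axon guidance and wiring genes had 9 of 32, with Sema1a (5619), the cadherin gene CadN (927.3) and the teneurin gene Ten-m (398.2) strongest, and with NetA, NetB, robo2 and unc-5 among the rest. Ion channel and ionotropic receptor genes had 1 of 28, nAChRalpha6 (132.1). Their median eligible sequence was 25.1 kb, against 24.6 kb for the axon guidance list. They held 1.22 summits per Mb, against 13.4 for that list and 14.0 for all eligible sequence. Genes of the immunoglobulin-domain dpr, DIP, side and beat families had 4 of 39, with side-III (448.3), side (446.1) and beat-IIIc (365.8) strongest. Neurotransmitter and peptide receptor genes had 3 of 31, Dop1R1 (444.2), 5-HT2B (177.2) and Proc-R (134.4), and 2 of 31 without replicate 1. Synapse, vesicle release and cAMP signalling genes had 3 of 20, rut, rg (335.7) and dnc (159.3), of which rut and dnc make and break down cAMP. The summit in rg also lies in CG15465. The ion channel list had 2 of 28 without replicate 1 and 1 of 28 without replicate 2.

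In the muscle lists, myoblast fusion genes had 2 of 6, kirre and hbs (123.8), and 1 of 6 without replicate 1. Sarcomere and muscle attachment genes had 2 of 10, wb (1388), a laminin gene, and Msp300 (135.0). RNA-binding protein genes had 6 of 16, with sm (1897), bru3 (506.2) and mub (384.9) strongest. They held 6.15 summits per Mb, below the 14.0 of all eligible sequence, with a median of 43.2 kb of eligible sequence. Some list genes are short and had no eligible sequence, so a list's count says nothing of its promoters.

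**Figure D5:**
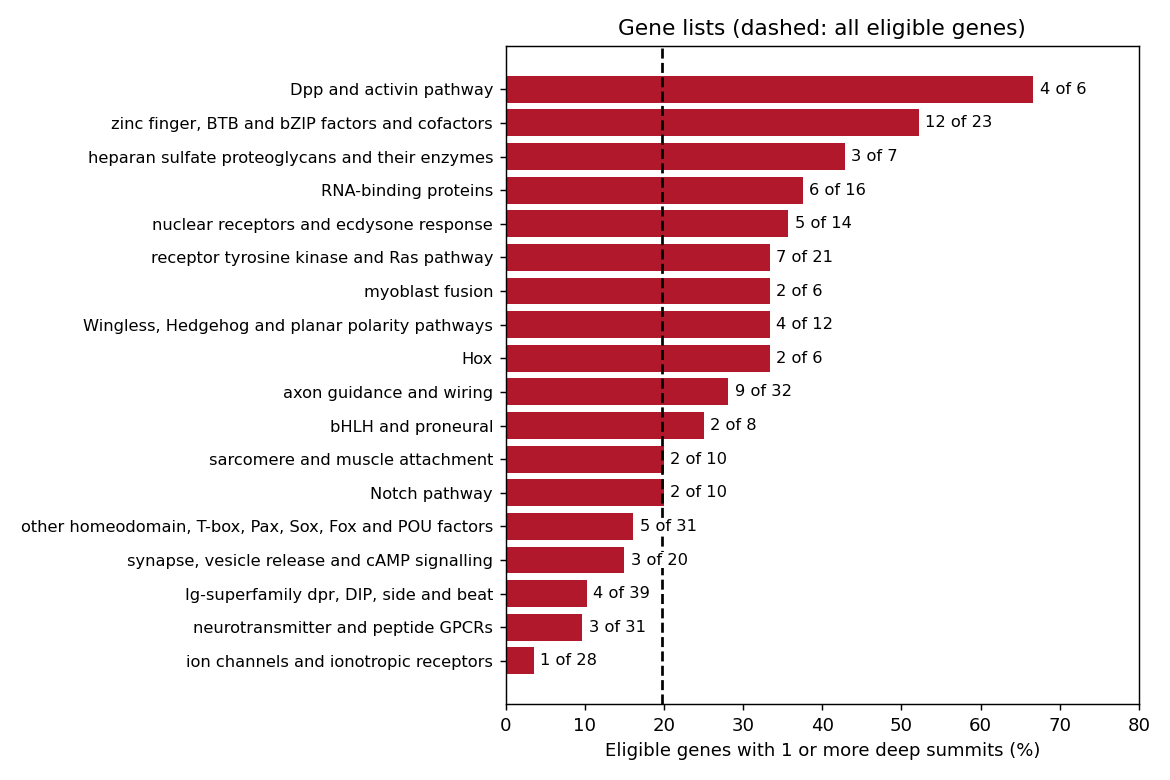
Percent of the genes with eligible sequence in each of 18 lists that held 1 or more deep gene-body summits (horizontal axis), with the counts beside the bars; the dashed line is the 19.7% of all 926 eligible genes. The Dpp and activin list (4 of 6) is at the top and the ion channel list (1 of 28) at the bottom.

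Within 500 bp of the TSS of an annotated non-coding gene lay 6 of the 317 summits, in osa, dlp, DIP-alpha, Hr3, Tis11 and Sema1a, and within 100 bp 1. The share within 500 bp was 1.89% (exact interval 0.698 to 4.07%), against 0.770% of eligible positions and 4.74% of all optimal summits, with no test. The nearest summit, in dlp with a signal of 200.4, lay 83 bp from the TSS of lncRNA:CR45888. In Sema1a the summit 376 bp from the TSS of a phenylalanine tRNA gene had a signal of 144.1 and was the weakest of 3 in that gene, well below the strongest one, at 5619.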

How the data were processed

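Peak lists of 2 ChIP-seq replicates (CG8281-GFP, whole embryos, chromatin sonicated to 200 to 800 bp) were read as deposited, on dm6. Per the labels' files, each replicate's peaks were called on its alignment against a control alignment, a pooled list on both, and the optimal list was derived from these by the irreproducible discovery rate. The optimal peaks were the 3921 strongest of the 30000 pooled ones. The sources used here name no aligner, peak caller or threshold. The columns deposited by the authors were the peak caller's signal value, of unstated scaling, the -log10 of a q-value, which was not used, and the summit offset in bases (another whole number). No column of values lacked a sample or a pool (0). Depth per sample is unknown.

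Summits were placed on Ensembl release 115 genes, with the RefSeq genome of the same assembly for sequence. Eligible sequence was described by positions every 200 bp, every 1000 bp for arrays and every 4000 bp for other spacings. Replicate overlap needed 1 bp. Motifs were searched within 100 bp of summits, in flanks of 101 bp each centred 500 bp away. Tests were the exact McNemar and Fisher's exact tests, two-sided, Benjamini-Hochberg adjusted, threshold 0.05, with exact Clopper-Pearson intervals at 95%. Scripts ran in Python 3.11.15 with scipy 1.17.1, pandas 2.3.3, numpy 2.4.6 and, for plots, matplotlib 3.10.9, and searches were tested on simulated data. Genes named are hosts of the 12 strongest summits, the 8 with most summits, up to 3 per list by signal, members beside the distance threshold, and others chosen after their values were seen (disco-r, the exonic hosts, remaining list genes). The summits, motifs, gene lists and tests were chosen with earlier results of these data known. Of 799 list symbols 27 did not match, and osp, Bx and others placed in a list by mistake were taken out after values were seen.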

Additional observations from a re-analysis of the deposited data

How the results depend on the processing

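The share of optimal summits that were deep gene-body summits, 8.08%, ran from 6.91% without replicate 2 to 8.88% without replicate 1. It was 16.4% with 1 TSS a gene, its 5′-most, 6.10% with TSSs of all annotated genes, 17.3% beyond 5000 bp and 2.83% beyond 20000 bp. The density ratio of 0.491 ran from 0.419 without replicate 2 to 0.538 without replicate 1. Motifs that passed against the flanks numbered 1, and 0 with a window of 50 bp and with flanks at 1000 bp; without 1 replicate they ran from 0 to 1. Motif calls against other positions numbered 6, and 3 with a window of 50 bp, where DRE, M1BP, GATA and the TATA box missed the threshold. Of the 6, only the BEAF-32 core and Pho held there, so the 3 include a comparison outside the 6. They numbered 5 without replicate 1. Without replicate 2 they numbered 7, the 6 and a comparison outside them. With at least 50% of the interval covered, the share found in both replicates was 0.537 points above summits outside genes and 1.00 points above promoter summits, in place of 1.75 and 1.90 below (exact adjusted p = 0.884 for both). The share stronger than the median, set against promoter summits, ran from -20.5 to 7.08 points without 1 replicate, and against nearer gene-body summits from -7.49 to -1.10 points; the cause was not tested. Alternatives chosen after seeing the data gave an array share of 28.7 to 31.0% without 1 replicate, 23.3% for 4 or more triplets, 19.2% for 5 or more, 20.8% for TGA only and 19.2% among 2 times as many pooled peaks. Word counts of 8 to 10 of 10 passed under 6 alternatives. With osp in the zinc finger list as first written its count was 13, and with Bx in the Notch list 3. No paired analysis was possible because the samples form 1 group. Without read counts, depth cannot show which weak summits a deeper library would add.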
